A study of Mus musculus with 18 samples.

Results

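The trophectoderm regulators Cdx2, Eomes, Gata2, Gata3, Hand1 and Elf5 and the simple keratins Krt8, Krt18, Krt19 and Krt7 were followed in mouse embryonic stem (ES) cells. They are 10 of the 15964 genes that the chips name, and were read by 18 of 36701 probe sets, namely every probe set whose annotation gives one of them as its only gene. Of these, 15 lie on the chip U74Av2, 2 on U74Bv2 and 1 on U74Cv2. Each probe set pools several short oligonucleotides against one transcript, and its value is a signal intensity on a linear scale with no absolute unit.

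The study compared wild-type (WT) FVB/N ES cells kept in LIF with FVB/N ES cells that overexpress STAT3-MER and were kept in OHT (4-hydroxytamoxifen) without LIF, with 3 dishes per group and each dish on the 3 chips. The study asked how the WT cells, which gave no chimeras, differ from the transgenic cells, which passed through the germline. It also sought genes related to the STAT3 pathway. In STAT3-MER a changed ligand-binding domain of the mouse estrogen receptor is fused to STAT3, and OHT activates it. A chicken β-actin promoter, meant to act in all cells, drives the transgene, which is hemizygous in the mouse line of origin. WT cells were not kept in OHT and the transgenic cells were not kept in LIF, so transgene, ligand and line cannot be told apart. Each group is 1 cell line, so p-values rest on differences among dishes and say nothing of other lines. Both lines were started from blastocysts on fibroblast feeder cells of CD-1-M-TKneo fetuses, and the inner cell mass was picked out of the outgrown trophectoderm.

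The trophectoderm is the first epithelium of the mouse embryo and surrounds the inner cell mass, from which ES cells are derived. Its fate is set by Hippo signalling: in outer cells YAP1 enters the nucleus, binds TEAD4 and allows Cdx2 and Gata3 to be switched on. CDX2 represses Pou5f1 (Oct4), and POU5F1 in turn represses Cdx2, so that ES cells keep the trophoblast genes low. Keratins form filaments from one type II chain, such as KRT8 or KRT7, and one type I chain, such as KRT18 or KRT19, and are markers of this epithelium.

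Krt8 and Krt18, whose products pair, both lie on chromosome 15, as does Krt7. The RefSeq windows of 250 bases before and 50 after their starts (build GRCm38.p6) are printed because Krt8 had the largest difference between the groups among the 18 probe sets and KRT18 is its partner. Capitals mark TATAAA on either strand, with overlapping matches joined.

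Krt8, chr15:102004293-102004592, minus strand: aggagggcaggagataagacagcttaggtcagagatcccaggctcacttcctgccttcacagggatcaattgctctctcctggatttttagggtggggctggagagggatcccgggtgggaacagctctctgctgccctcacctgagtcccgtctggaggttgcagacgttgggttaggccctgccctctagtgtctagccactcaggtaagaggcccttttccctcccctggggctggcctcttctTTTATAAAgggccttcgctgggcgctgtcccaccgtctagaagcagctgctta

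Krt18, chr15:102027966-102028265, plus strand: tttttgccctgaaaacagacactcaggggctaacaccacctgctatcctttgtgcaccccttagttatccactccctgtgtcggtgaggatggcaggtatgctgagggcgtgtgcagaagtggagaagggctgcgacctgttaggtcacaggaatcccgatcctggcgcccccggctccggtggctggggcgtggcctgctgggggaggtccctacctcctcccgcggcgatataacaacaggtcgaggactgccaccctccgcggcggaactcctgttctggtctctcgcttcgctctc

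RefSeq windows were at hand for 8 of the 10 genes, and with the second starts of Gata2 and Elf5 these made 10 windows. Hand1 and Krt19 are named only. TATAAA was found in 1 of the 10, that of Krt8, and in 13.6% of all 32851 windows. TTCNNNGAA, the palindrome that STAT dimers bind, was found in 0 of the 10 and in 8.30% of all windows. GGGCGG, the letters that SP1 and its relatives bind, was found in 4 of the 10, namely both windows of Gata2 and those of Gata3 and Krt7, and in 35.7% of all windows. Both strands were searched. These are matches of letters and not sites.

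The cells carried the marks of ES cells and of the transgene. Pou5f1 gave signals of 2157, 5824 and 5054 in WT LIF dishes 1, 2 and 3 and of 6533, 3562 and 8348 in STAT3-MER OHT dishes 1, 2 and 3. All 16 pluripotency genes were above background in all 6 dishes and 0 were called. Their log2 differences were -0.28 for Dppa5a, -0.04 for Sox2, 0.14 for Nanog, -1.09 for Dppa3 and -0.50 for Klf2, of which Dppa3 alone had an unadjusted p under 0.05. Esr1, whose probe set reads the receptor part of the fusion, gave 40.3, 19.7 and 9.25 in the WT dishes and 25848, 25568 and 31548 in the STAT3-MER dishes. The probe set of Stat3 (99099_at) gave 799, 827 and 831 against 892, 649 and 1233, with overlapping groups and a log2 difference of 0.12. The transgene thus showed at Esr1 and not at this probe set. The study reported STAT3-MER overexpression on its arrays without naming the probe set. It also measured STAT3 by real-time PCR and showed the STAT3-MER protein by western blot. Feeder fibroblast genes were present in both groups and uneven between dishes: 19 of the 28 measured were above background in all 6 dishes and 5 in none. Summed over the 24 on U74Av2, their signals ran from 25086 to 57724 in WT dishes and from 14878 to 60808 in STAT3-MER dishes, lowest in WT dish 2 and STAT3-MER dish 1. The group differences were -0.27 for Col1a2, -0.61 for Acta2, -0.48 for Dcn, -0.40 for Timp3 and -0.62 for Thbs2, and no feeder gene was called. In such bulk RNA, fewer cells of a type and less RNA per cell cannot be told apart.

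Since the tables carry no detection call, background was set on each array at the 90th percentile of the probe sets of genes restricted to adult specialised tissues. This level was 140.1 to 177 on U74Av2 (344 reference probe sets), 303 to 486 on U74Bv2 (46 probe sets) and 843 to 1121 on U74Cv2 (76 probe sets). Of all probe sets of an array, 46.7% to 49.8% exceeded it on U74Av2 and 32.6% to 45.4% on U74Bv2. On U74Cv2 only 13.3% to 17.9% did, so the level is stricter there. Probe sets differ in how well they bind, so a signal below it does not show that a transcript is absent.

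Most of these probe sets stayed at background in both groups. Of the 18, 13 exceeded the level in no dish, 4 in some dishes and 1, of Gata2, in all 6. In all 3 WT dishes 3 of the 18 were above it, those of Gata2, Krt8 and Krt18, against 28.3% of all 36701 probe sets. In all 3 STAT3-MER dishes only that of Gata2 was, 1 of 18, against 28.6% of all. On U74Av2, which holds 15 of the 18, the shares of all 12422 probe sets were 42.6% in either group. By gene, Cdx2, Eomes, Gata3, Elf5 and Krt19 had no probe set above background in any dish, and Gata2, Hand1, Krt8, Krt18 and Krt7 had one in at least 1 dish. At 1 probe set per gene, 5 of the 10 were above background in no dish, beside 6346 of all 15964 genes. On U74Av2, 10 of the 15 probe sets were above it in no dish, against 43.95% of all 12422.

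**Figure D1:**
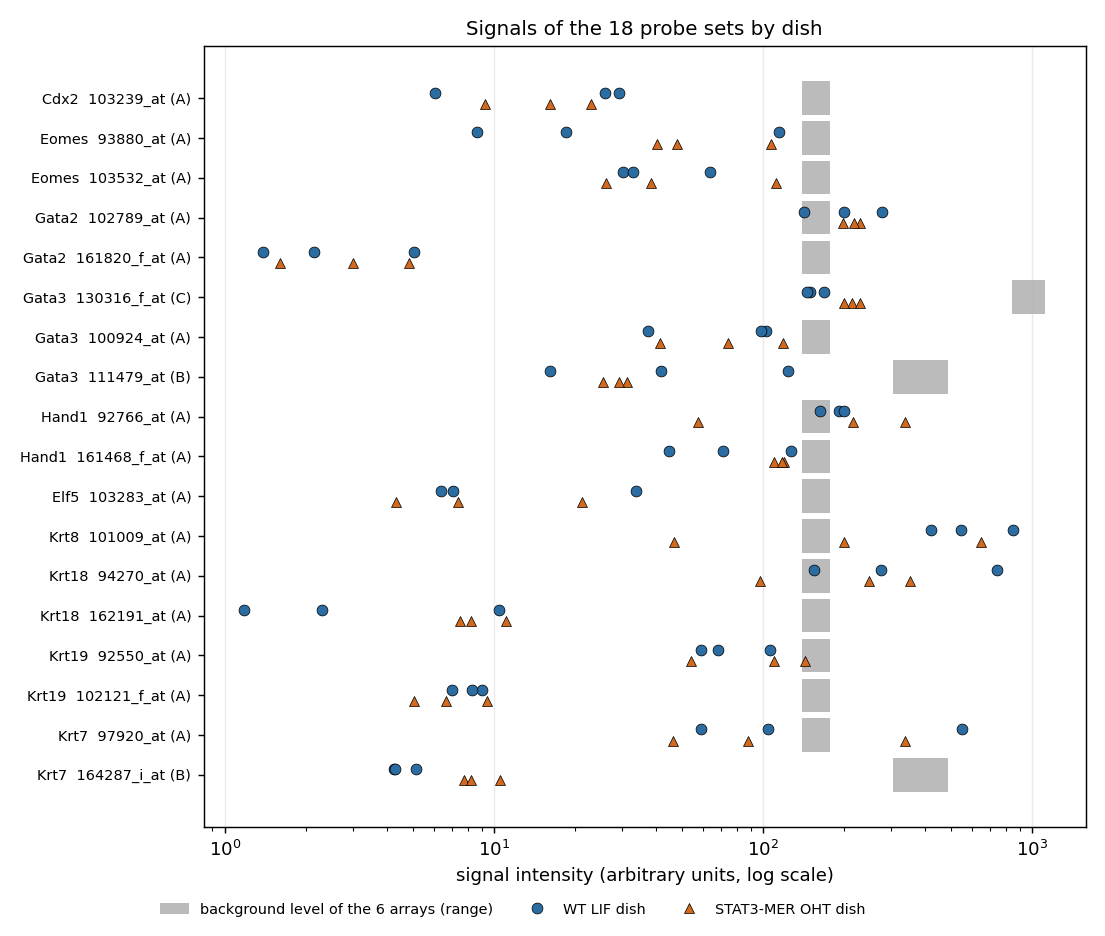
Signal intensity (log axis) of each of the 18 probe sets in the 3 WT LIF dishes (circles) and the 3 STAT3-MER OHT dishes (triangles). Letters in brackets name the chip (A, B or C of the U74 set), and grey bars span the background levels of its 6 arrays. Gata2 102789_at alone lay above background in all 6 dishes, and 13 probe sets lay above it in none.

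No probe set of these genes was called between the groups. In the limma fit over all probe sets of the 3 chips, 0 of 18 passed an adjusted p of 0.05, against 0.00272% of all (1 of 36701, that of Esr1). At an unadjusted p under 0.05 the count was again 0 of 18, against 3.45% of all. The smallest adjusted p among the 18 was 0.9996. The difference of the means of log2(signal + 32), STAT3-MER OHT minus WT LIF, ran from -1.40 (Krt8) to 0.47 (an Eomes probe set at background), and was above 0 at 9 probe sets and below 0 at 9. Its median was -0.004 over the 18 and 0.01 over all probe sets. Groups did not overlap at 2 of 18 probe sets, both higher in STAT3-MER dishes, against 8.13% of all probe sets. Both lay below background in every dish. By the criteria of the study's methods (ratio over 1.5, difference over 100, unadjusted p under 0.1) 0 of 18 passed, against 1.98% of all.

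**Figure D2:**
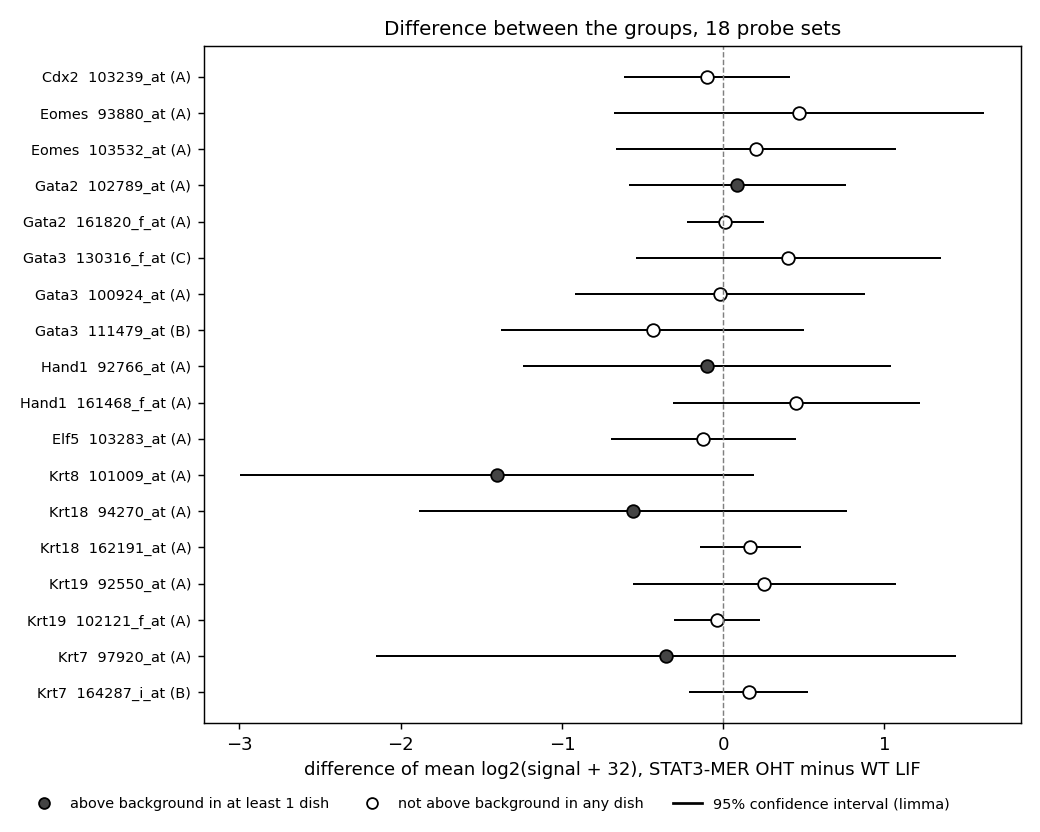
Difference of the group means of log2(signal + 32), STAT3-MER OHT minus WT LIF (points), with its 95% confidence interval from limma (lines), for the 18 probe sets. Filled points were above background in at least 1 dish and open points in none; every interval includes 0, and the lowest estimate is that of Krt8, -1.40.

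The limits of these data show in the intervals. Over the 6 probe sets with a mean signal over 100, the 95% interval, which is not adjusted for the number of probe sets, reached a median of 1.23 to either side on the log2 scale. A p that misses the threshold does not show equal levels.

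Among the regulators, Cdx2, which encodes the caudal-type homeobox factor required to keep the trophectoderm, was at background. Its single probe set (103239_at) gave 25.8, 29.2 and 6.02 in WT dishes 1 to 3 and 16.2, 9.29 and 22.9 in STAT3-MER dishes 1 to 3. The groups overlapped, and every signal was far below the level of its array (29.2 against 175 in WT dish 2, the highest).

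Eomes, a T-box factor needed for trophoblast stem cells and later for mesoderm, was read by a pair of probe sets. The first (93880_at) gave 18.5, 115 and 8.65 in WT dishes and 107, 40.2 and 48.0 in STAT3-MER dishes. The second (103532_at) gave 30.2, 63.6 and 32.8 against 112, 26.1 and 38.4. At both, WT dish 2 was the highest WT dish and STAT3-MER dish 1 the highest STAT3-MER dish, the dishes with the lowest feeder sums, whose part in this was not tested. No signal reached background.

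Elf5, an ETS factor that maintains the trophoblast stem cell state and whose promoter is methylated in ES cells, gave 6.35, 33.6 and 7.04 against 4.32, 21.2 and 7.36 (103283_at). These signals exceeded only 4.07% to 24.5% of the probe sets of their arrays, and WT dish 2 and STAT3-MER dish 2 held the highest.

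Gata3, a zinc-finger factor of the outer cells that acts beside Cdx2, was read by 3 probe sets on 3 chips, none above background. On U74Av2 (100924_at) the signals were 103, 98.6 and 37.5 against 119, 74.1 and 41.3. On U74Bv2 (111479_at) they were 124, 41.7 and 16.1 against 31.1, 25.5 and 29.1. On U74Cv2 (130316_f_at) they were 149, 168 and 145 against 213, 229.9 and 200.2. The U74Cv2 probe set is one of the pair whose groups did not overlap, with all 3 STAT3-MER dishes higher, but the suffix f marks probes shared within a gene family and the level on that chip was 843 or more. The 3 probe sets do not move alike, and the adjusted p of each was 0.9996.

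Gata2, its close relative and a driver of placental hormone genes in giant cells, was the only regulator above background in all 6 dishes. The signals of its probe set 102789_at were 277, 200.3 and 142 in WT dishes 1 to 3 and 198, 229 and 217 in STAT3-MER dishes 1 to 3. All 6 exceeded the level of their arrays, WT dish 3 by less than 2 units (141.9 against 140.1). None exceeded the 95th percentile of the reference probe sets, which was 224 to 316 on U74Av2. The mean was 206 ± 67.5 (SD, n = 3) in WT and 215 ± 15.9 (SD, n = 3) in STAT3-MER dishes. The difference was 0.09 on the log2 scale, with a 95% interval of -0.58 to 0.75, and the groups overlapped. Its sign turned to -0.12 without WT dish 3. The second Gata2 probe set (161820_f_at), of the family type, ran from 1.39 to 5.06 in the 6 dishes.

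Hand1, a basic helix-loop-helix factor that drives the giant cell fate, was above background in 2 dishes of each group. Probe set 92766_at gave 191, 162 and 200.3 in WT dishes and 57.5, 215 and 338 in STAT3-MER dishes. WT dish 2 and STAT3-MER dish 1 lay below their levels of 175 and 145, and STAT3-MER dishes held both the lowest and the highest signal. The means were 185 ± 19.7 and 203 ± 140.5 (SD, n = 3 each) and the log2 difference was -0.10, with an interval of -1.24 to 1.03. Without STAT3-MER dish 1 it was 0.49. The dishes with the lowest Hand1 signals were those with the lowest feeder sums; the part of the feeder cells in this was not tested. The second probe set (161468_f_at) ran from 44.9 to 127 and was not above background.

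Krt8, the type II chain that is among the first keratins made in the mouse embryo, had the largest difference among the 18 probe sets. Its signals were 849, 544 and 421 in WT dishes 1, 2 and 3 and 648, 199.7 and 46.8 in STAT3-MER dishes 1, 2 and 3 (101009_at). The 3 WT dishes and STAT3-MER dishes 1 and 2 were above background, and STAT3-MER dish 3 fell to well below its level of 170.5. The groups overlapped, because STAT3-MER dish 1 was higher than WT dishes 2 and 3. The mean was 605 ± 220 in WT and 298 ± 312 in STAT3-MER dishes (SD, n = 3 each), a ratio of 0.49. In limma the difference was -1.40 (SE 0.69) on the log2 scale, with an interval of -2.99 to 0.18, an unadjusted p of 0.0756 and an adjusted p of 0.9996. The size rests on single dishes: it was -2.18 (unadjusted p 0.00319) without STAT3-MER dish 1 and -0.63 without STAT3-MER dish 3. The adjusted p was 0.9997 and 1.00.

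Krt18, the type I partner of Krt8, had its highest and lowest signals in the same dishes as Krt8. Probe set 94270_at gave 739, 275 and 155 in WT dishes and 350.3, 247 and 97.8 in STAT3-MER dishes. STAT3-MER dish 3 was again the dish below background. From highest to lowest the dishes stood in the order WT 1, STAT3-MER 1, WT 2, STAT3-MER 2, WT 3 and STAT3-MER 3, and Krt8 had the same order but for WT dish 3, which came before STAT3-MER dish 2. The difference was -0.56 (SE 0.57) with an interval of -1.88 to 0.76, and without WT dish 1 it was 0.003. A second probe set (162191_at) ran from 1.18 to 11.1.

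Krt7, a type II keratin of trophoblast and duct epithelia, was above background in 1 dish of each group. Probe set 97920_at gave 549.6, 104 and 58.6 in WT dishes and 87.6, 337 and 46.1 in STAT3-MER dishes. WT dish 1 and STAT3-MER dish 2 stood apart from the other 4 dishes, the highest of which was WT dish 2. The log2 difference was -0.35, with an interval of -2.15 to 1.44, and it was 0.44 without WT dish 1 and 0.12 without STAT3-MER dish 3. Both high dishes had high feeder sums (54119 and 60808), as did WT dish 3 (57724), where Krt7 was at background. What part the feeder cells had in Krt7 was not tested. The U74Bv2 probe set (164287_i_at) gave 4.27, 4.29 and 5.15 against 7.73, 10.5 and 8.24, did not overlap and lay far below its level of 303 or more.

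Krt19, a type I keratin of simple epithelia, stayed at background. It gave 68.3, 106 and 58.7 in WT dishes and 109.6, 143 and 54.0 in STAT3-MER dishes (92550_at), and the groups overlapped. Its second probe set (102121_f_at) ran from 5.04 to 9.46.

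**Figure D3:**
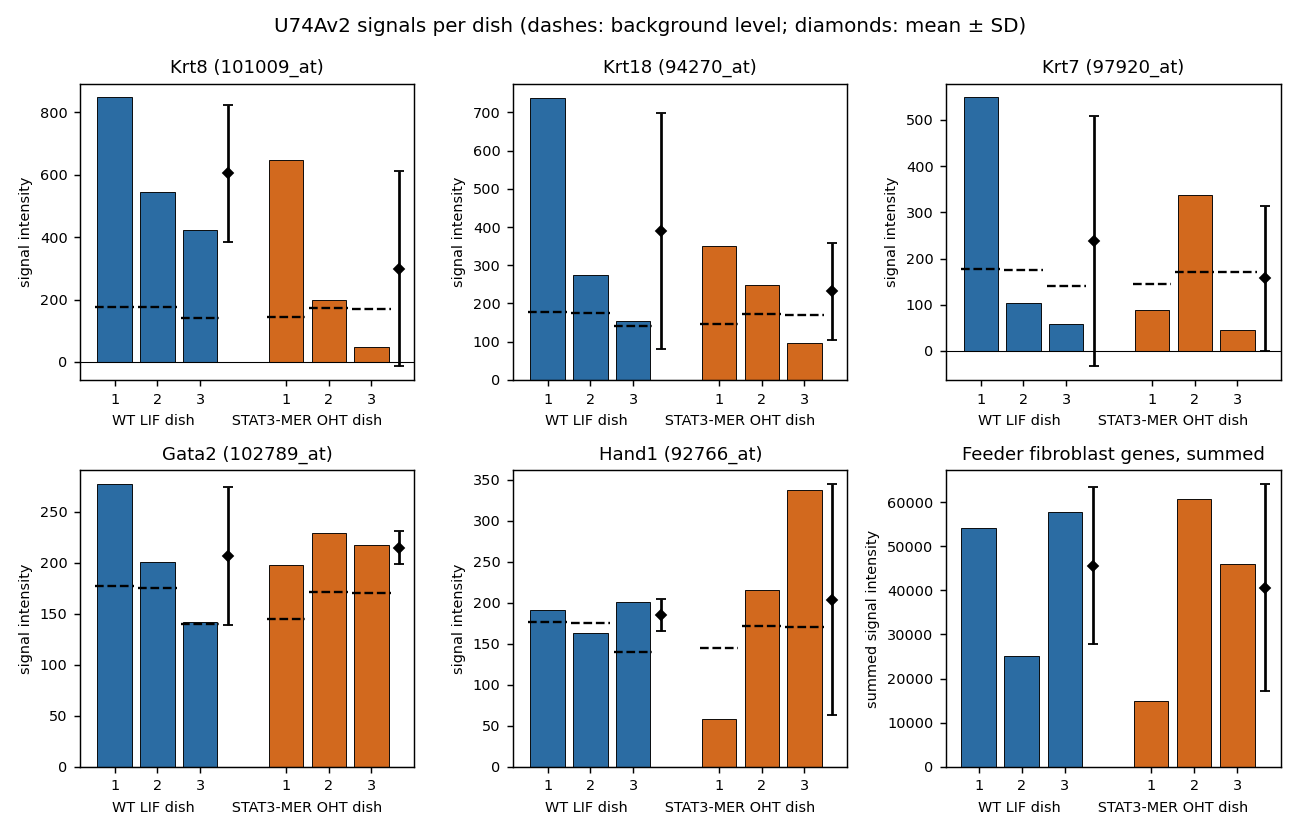
Signal intensity per dish on U74Av2 for the 5 genes above background in at least 1 dish, with WT LIF in blue and STAT3-MER OHT in orange, dashes for the background level of each array and diamonds for the group mean ± SD (n = 3). The last panel gives the summed signal of 24 feeder fibroblast genes. STAT3-MER dish 3 is the lowest dish for Krt8 (46.8) and Krt18 (97.8), and WT dish 1 and STAT3-MER dish 2 are the high dishes for Krt7.

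The genes around these regulators were above background to differing degrees, and none was called in either direction. Over all 15964 genes, 38.7% were above background in all 6 dishes. Of 23 other trophoblast regulators measured, 13 were above background in all 6 dishes, with a median log2 difference of 0.11 against 0.00 over all 15964 genes at 1 probe set each. The 3 genes of highest mean signal were Arnt, with a difference of -0.22, Tfap2c and Esrrb. Tfap2c, an AP-2 factor shared by trophoblast and germ cells, gave 4410.0, 3008 and 2449 against 4599.7, 4859.7 and 2992. Esrrb, an orphan receptor needed in both trophoblast stem cells and ES cells, gave 2639, 3450.3 and 2411 against 3117, 2789.6 and 4258. The smallest p values belonged to Klf5 (difference 0.55, unadjusted p 0.0683) and Zfp36l1 (0.37, unadjusted p 0.0864), which the adjustment did not pass.

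Of 15 Hippo pathway genes 12 were above background in all dishes, with a median difference of -0.03. Yap1, the coactivator that Hippo signalling keeps out of the nucleus, gave 3180.1, 3796 and 3489 against 2979.7, 3609 and 4585. Tead1, which encodes a partner of YAP1, had a difference of 0.06, and Mob1a, an activator of the LATS kinases, of 0.19. The kinases Lats1 and Lats2, which phosphorylate YAP1, had the smallest p, with differences of 0.46 and -0.48 (unadjusted p 0.0964 and 0.105). Of 10 trophoblast signalling genes 6 were above background in all dishes and the other 4 in none. Fgf4, the ES cell ligand on which trophoblast stem cells depend, gave 2139, 1847 and 1832 against 1343, 2128 and 1809. The convertase gene Pcsk6 differed by -0.39, the kinase gene Map2k1 by -0.02 and the repressor gene Erf by 0.40, and Bmp8b (-0.33) lay below background. The adjustment passed none of these.

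Among 24 genes of differentiated trophoblast and placenta, 6 were above background in all dishes and 13 in none, with a median difference of -0.04. The prolactin-like Prl8a9 and the cathepsin Ctsj, both placental, had an unadjusted p under 0.05 and lay below background in every dish. Plet1, a surface protein gene of trophoblast progenitors, gave 773, 779.7 and 246 against 1653, 683 and 696. Rhox9, an X-linked homeobox gene of placenta and germ cells, gave 1279.6, 8068 and 2347 in WT dishes and 1402, 7917 and 3025 in STAT3-MER dishes, with dish 2 the highest of each group and the groups overlapping. Phlda2, an imprinted brake on placental growth, gave 805, 1773 and 766 against 2018, 566 and 265.

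Genes of the wider epithelium were above background in part. Of 23 blastocyst epithelium genes 11 (47.8%) were above background in all dishes, against 38.7% of all 15964 genes. Cldn7, a tight junction protein, had the smallest p of them and did not overlap, with 3957, 4361 and 3853 in WT dishes against 2919.7, 3222 and 2553 in STAT3-MER dishes (difference -0.48, unadjusted p 0.0358, adjusted p 0.9996). It was read by 129927_i_at on U74Cv2, a probe set with a suffix. Groups did not overlap at 1 of the 23 genes, beside 1201 of all 15964. The junction genes Ctnna1, F11r and Cldn3 had differences of 0.06, -0.25 and -0.48. Of 23 other keratins 5 were above background in all dishes and 13 in none, with a median difference of 0.00. Krt81 had the smallest p of those, 0.1001 unadjusted, with a difference of -0.55, beside -0.26 for Krt13, -0.01 for Krt86 and -0.39 for Krt4. Of 13 filament and keratin-associated proteins 8 were above background in all dishes. Dsp, desmoplakin, which anchors keratin filaments to desmosomes, gave 986, 1472 and 710.2 against 2038, 669 and 463, with its highest signal in STAT3-MER dish 1 and its lowest in STAT3-MER dish 3. Differences were 0.02 for Dst, 0.07 for Nes, -0.39 for Trp53bp1 and -0.44 for Vim, the last below background in every dish.

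**Figure D4:**
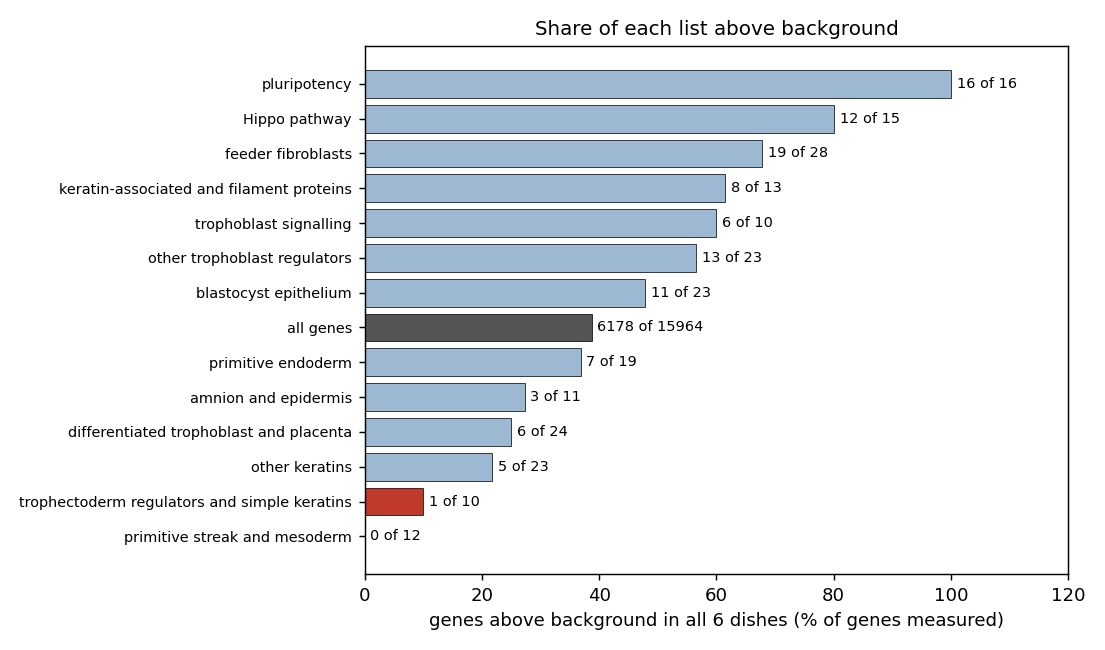
Percent of the measured genes of each list whose probe set was above background in all 6 dishes, at 1 probe set per gene, with the counts beside the bars. The trophectoderm regulators and simple keratins (red) reached 1 of 10, all genes (dark grey) 6178 of 15964 and the pluripotency genes 16 of 16.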

How the data were processed

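RNA of 3 dishes per group was amplified in 2 rounds and hybridized to the 3 chips by the authors. The deposited values are signal intensities, 1 for each probe set of an array, linear and without detection calls. The submitters' processing notes name MAS5. Trimmed means (2% left out on each side) were 500.1 to 500.3. The authors' dChip values were not used here. The number of dishes limits the precision.

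Each array was scaled to the mean trimmed mean of its chip. Log2(signal + 32) was compared with limma 3.58.1 in R 4.3.3 (lmFit, eBayes with a trend, two-sided, 1 fit per chip), adjusted by Benjamini-Hochberg over all 36701 probe sets other than controls. Lists used 1 probe set per gene, without a cross-hybridization suffix first, then the brightest. Named were all members, per list the 3 genes of highest mean signal and the 2 of smallest p, and Pou5f1, Nanog, Sox2, Stat3 and Esr1. Members and lists were chosen with earlier results of these data known. The STAT3-MER array on U74Av2 whose label gives no replicate number was taken as 2, the number left over. Its deviations correlated best with those of WT dish 1 (0.46), whereas on U74Bv2 and U74Cv2 the same numbers matched best. A WT array is labelled with different chips in its title and description, and was read as U74Cv2, whose probe sets it holds. It is not settled that a dish number names the same dish on each chip, so feeder sums were taken on U74Av2 alone. The fit was tested on simulated arrays. Figures were drawn with matplotlib.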

Additional observations from a re-analysis of the deposited data

How the results depend on the processing

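No member probe set was called under quantile or median scaling, signals as deposited, pseudocounts of 8 or 100, a filter on dim probe sets (5 of 18 left), no trend, adjustment within each chip or any dish left out. The methods' t-test gave 2 of 18 at an unadjusted p under 0.1 and 0 after Benjamini-Hochberg. The 2 were the dim probe sets of Gata3 on U74Cv2 and Krt7 on U74Bv2. The share of all probe sets under that test was not computed, so nothing is read from this count. The median difference (-0.004) ran from -0.04 to 0.11 with a dish left out, and was -0.35 over the 5 probe sets left by the filter and -0.10 at 1 probe set per gene. With the replicate number as a replicate block, 0 were called. Each block held 1 dish of each group, so the differences and their median (-0.004) could not change. Deviations of same-numbered dishes correlated at -0.30, -0.33 and 0.29 on U74Av2, at 0.18, 0.21 and 0.13 on U74Bv2 and at 0.11, 0.13 and 0.07 on U74Cv2. On the last 2 chips every dish correlated best with its own number, a hint from the data and not the design, while on U74Av2 WT dish 1 did so with STAT3-MER dish 2 (0.46) and WT dish 2 with STAT3-MER dish 1 (0.41). The numbers were therefore not used to pair the dishes in the main fit. On U74Av2 the block by number joined dishes of opposite deviations at numbers 1 and 2. A block of the best-correlated dishes was not fitted. Krt8, on U74Av2, had an unadjusted limma p of 0.0169 under the block by number, and its adjusted p was 0.9995. That unadjusted p rests on this pairing.

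The count above background in all WT dishes (3) was 4 at the 75th percentile, 1 at the 95th and 4 at the array median. It was 4 for at least 2 of 3 dishes, and 3 to 4 with a dish left out. The count in all STAT3-MER dishes (1) was 3 at the 75th percentile, 0 at the 95th and 1 at the array median. It was 4 for at least 2 of 3 dishes, the same as in WT, and 1 to 3 with a dish left out. Leaving out 1 dish turned the sign of the difference at 10 of 18 probe sets, with these ranges: Cdx2 103239_at -0.316 to 0.0277, Eomes 103532_at -0.19 to 0.47, Gata2 102789_at -0.12 to 0.29, Gata2 161820_f_at -0.0221 to 0.0573, Gata3 100924_at -0.33 to 0.24, Gata3 111479_at -0.822 to 0.0237, Hand1 92766_at -0.54 to 0.49, Elf5 103283_at -0.29 to 0.13, Krt18 94270_at -1.02 to 0.00264 and Krt7 97920_at -0.998 to 0.44. Median scaling turned Gata3 100924_at from -0.02 to 0.00151. The causes were not tested. Signals at or near background limit most probe sets, those of Gata2, Hand1 and Krt7 included.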

Other observations

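Markers of other fates were above background to differing degrees. Of 12 genes of primitive streak and mesoderm, 0 were above background in all 6 dishes and 9 in none, and in limma 0 were called and 0 had an unadjusted p under 0.05. The log2 differences were -0.22 for Fgf8, -0.08 for Foxf1, -0.31 for Kdr, 0.63 for Gsc and 0.51 for Cer1. Of 19 primitive endoderm genes 7 (36.8%) were above background in all dishes, against 38.7% of all 15964 genes, and 5 in none. Among the 7 was Sparc, a matrix protein of parietal endoderm and fibroblasts. Its signals were 2487, 1354 and 2402 in the WT dishes against 1259, 3003 and 2710.0 for STAT3-MER. The U74Av2 sum over the list was lowest in WT dish 2 (5302) and STAT3-MER dish 1 (5065). Those dishes also had the lowest feeder sums, and the part of the feeder cells in this was not tested. Amn differed by 0.04 and Col4a1 by -0.13, and Lamc1 (0.48) and Foxa2 (-0.49) lay below background. Of 11 genes of amnion and epidermis, which share Gata3 and keratins with the trophectoderm, 3 were above background in all dishes and 5 in none. Isl1, a LIM homeobox gene of that list, gave 176, 194 and 145 against 229, 607 and 541 (log2 difference 1.17, unadjusted p 0.0305, adjusted p 0.9996). Every dish was below the strict background level of U74Cv2, though STAT3-MER dishes 2 and 3 exceeded 75.6% and 73.1% of the probe sets of their arrays. Trp63 (-1.16) lay below background too, and Grhl3, Epcam and Ovol1 differed by -0.003, 0.12 and 0.57. No gene of these lists was called.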
